A study of Sus scrofa with 8 samples.

Results

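The SLC25 genes encode the mitochondrial carriers, which move nucleotides, phosphate, keto acids, amino acids, cofactors and protons across the inner mitochondrial membrane. Their hepatic transcripts were followed in pigs before and after a steatotic diet. Every listed gene with a symbol made of SLC25A and a number was taken, together with the uncoupling proteins UCP1, UCP2 and UCP3, which belong to the same family under other names. This gave 48 of 18103 listed genes and new transcripts. The animals were male Landrace x Large White crossbred pigs. The initial state comprised 4 pools of liver RNA from pigs aged 4 months on the control diet. The steatosis state comprised 4 pools from the same study animals at 6 months, after 2 months on a diet rich in saturated fat, fructose, cholesterol and cholate and poor in methionine and choline. Each pool joined the RNA of 2 pigs, so every p-value below measures the spread between pools and not that between animals. Livers were taken after overnight fasting, by laparotomy under anaesthesia in the initial state and after euthanasia in steatosis. Diet, age, time and the way of sampling changed together and cannot be told apart. No group of the same age on the control diet was analysed here.

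Mitochondrial carriers share a fold that alternates between facing the intermembrane space and facing the matrix, and most of them exchange 1 substrate for another. In the liver they supply ADP and phosphate to ATP synthase, export citrate for lipid synthesis, import acylcarnitines for fatty acid oxidation, and carry ornithine and aspartate for the urea cycle. Uncoupling proteins belong to the family by sequence, and UCP1, the form of brown fat, lets protons re-enter the matrix and release heat.

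Expression was given as FPKM, the number of sequenced fragments set against the length of the transcript and the mapped fragments of the pool, so that levels can be compared between genes. From the steps between low FPKM values the depth was estimated at 18250000 to 20250000 fragments per pool. Markers of the hepatocyte were high in every pool, with a summed level of 93018 to 129764 FPKM over 12 genes in the initial state and 76903 to 91886 FPKM in steatosis, and 4 of them fell while 1 rose (6 and 0 after the median ratio scaling described below). Of 12 macrophage markers, 9 rose and 0 fell (10 and 0 at an unadjusted p under 0.05, 6 and 1 after median ratio scaling), with summed levels of 947 to 1208 FPKM and 1529 to 1695 FPKM. In whole liver RNA, fewer cells of a type and less RNA per cell cannot be told apart, and the part of either cell type in the carrier values was not tested. Initial state pool 1 stood apart. Its 11 listed markers of skeletal muscle summed to 3228 FPKM against 1.2 to 24.4 FPKM in the other 3 initial pools, and its 11 listed markers of stomach mucosa to 1552 FPKM against 6.57 to 29.9 FPKM. Markers of adipose tissue summed to 85.2 FPKM in that pool, to 4.15 to 8.29 FPKM in the other initial pools and to 52.1 to 68.1 FPKM in steatosis (2 of 4 tested rose). The level in steatosis rested on FABP4 (41.9 to 53.6 FPKM) and LPL (5.21 to 11.4 FPKM), whereas ADIPOQ, which is made by adipocytes, was at 0 to 0.04 FPKM there and at 27.9 FPKM in initial state pool 1. Markers of T and NK cells summed to 37.6 to 63.9 FPKM and 73.5 to 83.0 FPKM (1 of 7 rose). Beside these counts, 26.7% of all tested genes rose and 2.28% fell by the test described below. After median ratio scaling the shares of all genes were 11.3% and 10.2%, and those at an unadjusted p are not given here.

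Of the 48 carriers, 43 reached 0.3 FPKM or more in 4 or more of the 8 pools and were tested, and all 43 averaged at least 1 FPKM over the pools. The liver profile was steep. Only 4 carriers averaged at least 100 FPKM and 21 at least 10 FPKM. The 5 most abundant carriers were SLC25A47, a carrier found mainly in the liver, the ADP/ATP carrier SLC25A6, the phosphate carrier SLC25A3, the citrate carrier SLC25A1 and the ADP/ATP carrier SLC25A4. They held 61.4% ± 4.52 (SD, n = 4 pools) of the summed FPKM of the family in the initial state and 59.99% ± 1.73 in steatosis. SLC25A47 alone held 24.2% to 36.3% of that sum before the diet and 17.0% to 25.3% after it. SLC25A3, SLC25A1 and SLC25A4, at 109.8, 102 and 92.4 FPKM over all pools, followed SLC25A6 at some distance, and their ranges over the pools overlapped. At the other end, SLC25A14 (0.98 to 1.36 FPKM) and SLC25A35 (0.71 to 1.91 FPKM) were among the lowest of the tested carriers.

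**Figure D1:**
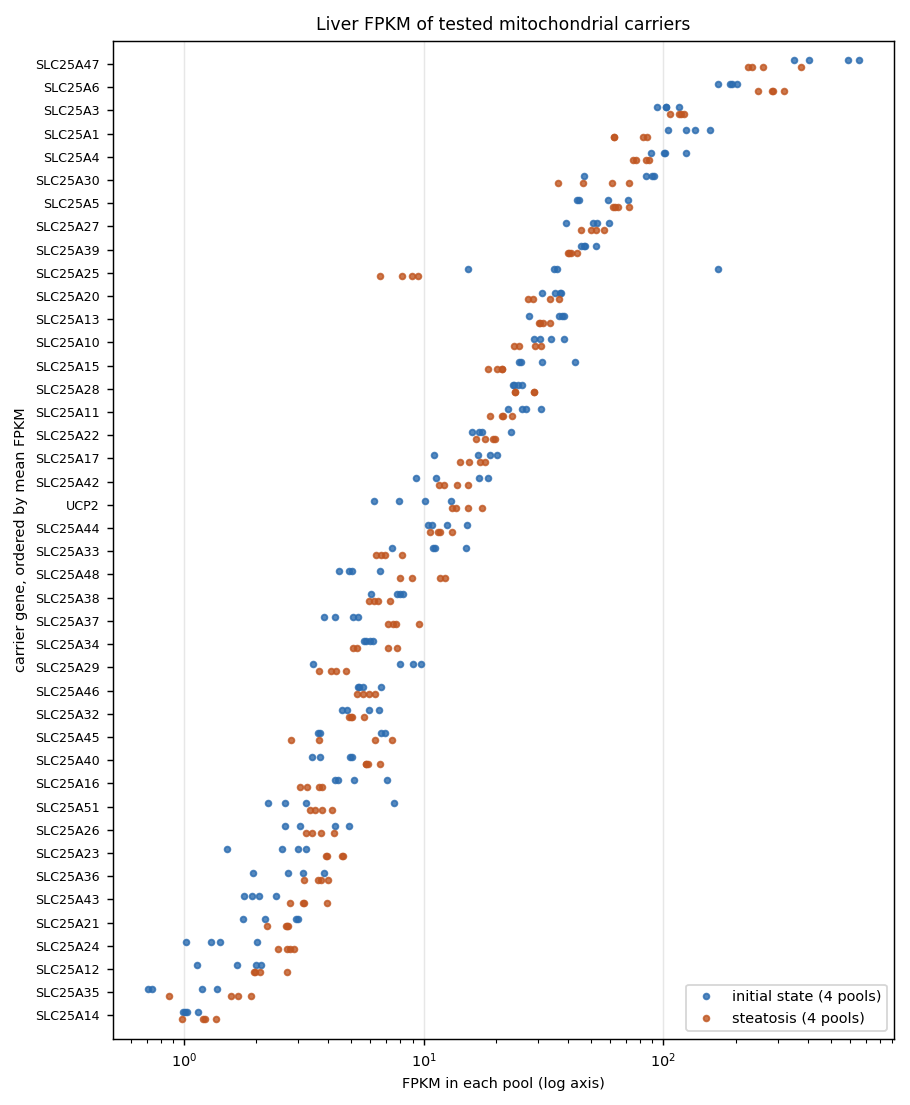
FPKM of 42 of the 43 tested carriers in each of the 8 pools, on a log axis, with the 4 initial state pools in blue and the 4 steatosis pools in orange, and genes ordered by mean FPKM. SLC25A47 and SLC25A6 lead, and SLC25A25 shows the widest spread, from 6.58 FPKM in a steatosis pool to 169 FPKM in initial state pool 1.

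The summed FPKM of the family was 1671, 1777, 1800.4 and 1431 in initial state pools 1 to 4 and 1374, 1475, 1311 and 1352 in steatosis pools 1 to 4. The groups overlapped. Without SLC25A47 the sum was 1170 ± 77.5 FPKM and 1105 ± 24.3 FPKM (SD, n = 4 pools each), again with overlap.

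Steatosis was compared with the initial state by limma on log2(FPKM + 0.1) over all 13175 tested genes, and a gene was called at a Benjamini-Hochberg adjusted p under 0.05. Among the 43 tested carriers 16 were called, of which 9 rose and 7 fell, where 29% of all tested genes were called, 26.7% higher and 2.28% lower. The remaining 27 carriers had log2 fold changes between -0.73 and 0.54. The median log2 fold change of the carriers was 0.01 and that of all tested genes 0.25, with 13 carriers above the latter and 30 below it. This shift of 0.25 in all genes depended on the scaling between pools. Dividing each pool by its median ratio to the geometric mean pool brought the median of all genes to -0.02. With that scaling 3 carriers rose and 16 fell, where 11.3% of all genes rose and 10.2% fell, and the median of the carriers was -0.26. The 3 that rose in both scalings were SLC25A48, SLC25A37 and SLC25A24. All 7 that fell in FPKM as deposited also fell after scaling, 9 others fell only after it, and 0 carriers were called in opposite directions. Both estimates are therefore given for the called carriers, and the scaled value is the change relative to the bulk of genes.

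By the stricter limits that the study used, namely an adjusted p below 0.01 together with a change of more than 1 on the log2 scale, limma called 0 carriers in either direction, against 6.01% of all genes higher and 0.334% lower. At an unadjusted p under 0.05 and the same fold limit, 0 carriers were higher and 1 was lower, SLC25A25. With median ratio scaling 2 carriers were lower by the stricter limits, SLC25A1 and SLC25A47, and 0 were higher. The 6.01% and 0.334% apply neither to this scaling nor to the unadjusted p, for which shares of all genes are not given here. Of the 43 tested carriers, 9 lay above the initial state in every steatosis pool and 6 below it, against 29.6% and 2.53% of all tested genes.

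**Figure D2:**
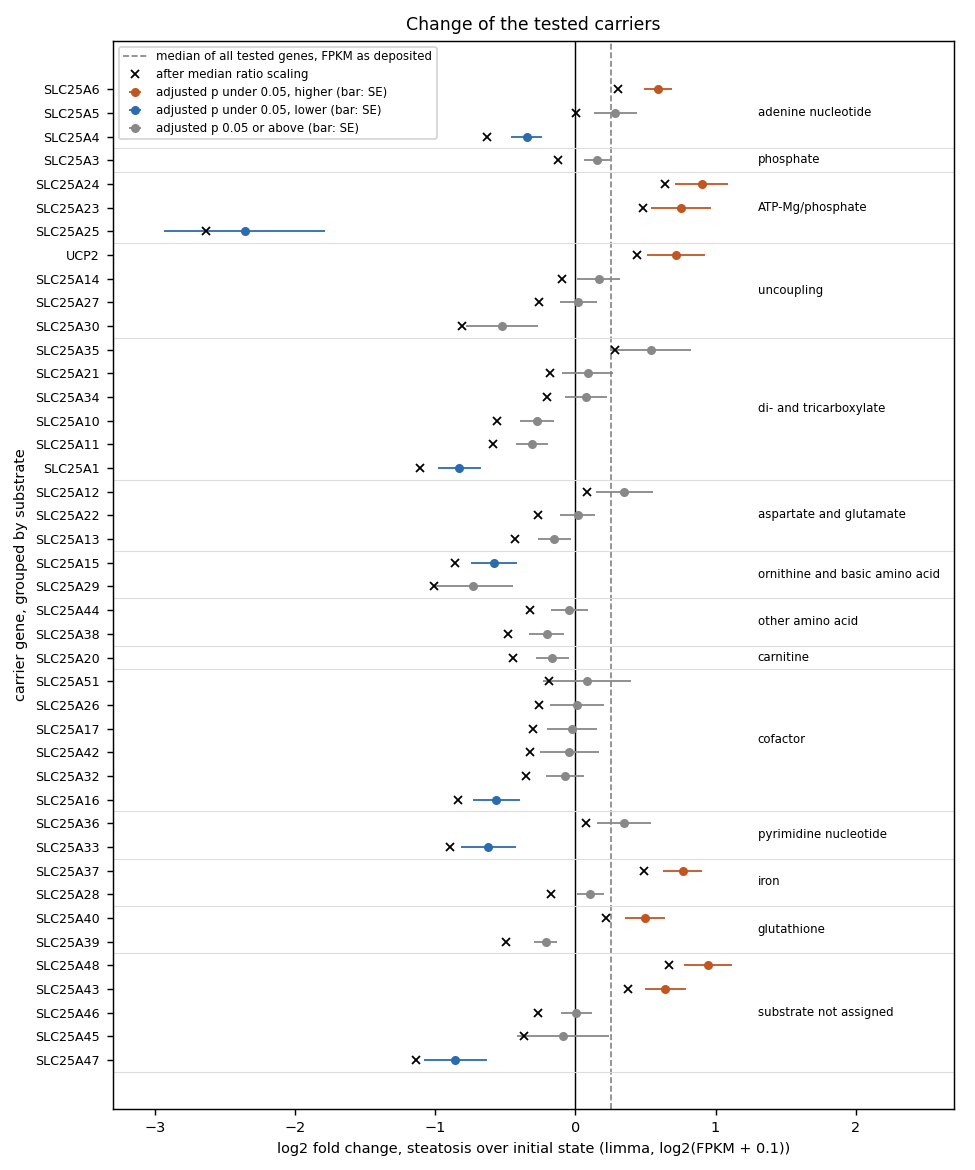
Log2 fold change of 42 of the 43 tested carriers, steatosis over initial state, with its SE (bars), grouped by substrate, with called genes in colour. Crosses show the estimate after median ratio scaling, and the dashed line is the median of all tested genes at 0.25. The crosses lie to the left of the points for every carrier shown, and SLC25A25 lies far from the others on the left.

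The ADP/ATP carriers, also called adenine nucleotide translocases, exchange matrix ATP for cytosolic ADP. SLC25A6, the most abundant of them, measured 194, 169.8, 202 and 189 FPKM in initial state pools 1 to 4 and 284, 249, 286 and 318 FPKM in steatosis pools 1 to 4. All steatosis pools lay above all initial pools, with a log2 fold change of 0.59 ± 0.10 (SE) and, by limma, adjusted p = 0.00248. After median ratio scaling the estimate was 0.31 (adjusted p = 0.111 by limma). SLC25A4, the form that prevails in heart and muscle, measured 101, 88.7, 101 and 124 FPKM before the diet and 76.8, 87.4, 85.02 and 74.9 FPKM after it (pools 1 to 4 of each state). The groups did not overlap, but the highest steatosis pool and the lowest initial pool were close. The change was -0.35 ± 0.11 (SE) on the log2 scale, and the adjusted p by limma was 0.0425, or 0.073 when pools of the same number were paired in a block, and 0.0216 after median ratio scaling. SLC25A5, the form linked to dividing cells, ranged over 43.5 to 71.3 FPKM and 61.4 to 72.2 FPKM and did not pass the test (adjusted p = 0.192 by limma). These 3 genes share much of their coding sequence, and how the estimation of expression divided fragments that match several of them could not be checked from FPKM. SLC25A3 imports the phosphate that ATP synthase joins to ADP. It measured 116, 103, 93.8 and 103 FPKM in the initial state and 118, 106, 116 and 122 FPKM in steatosis, in the order of the pools. The groups overlapped, and the log2 fold change was 0.16 ± 0.09 (SE) as deposited and -0.12 after median ratio scaling, with adjusted p values of 0.221 and 0.456 by limma.

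The ATP-Mg/phosphate carriers set the size of the adenine nucleotide pool in the matrix, and SLC25A23, SLC25A24 and SLC25A25 are regulated by calcium through a domain that faces the intermembrane space. SLC25A25 fell the most of all carriers. It measured 169, 36.1, 34.9 and 15.3 FPKM in initial state pools 1 to 4 and 8.13, 8.95, 9.46 and 6.58 FPKM in steatosis pools 1 to 4. Initial state pool 1 was far above the other initial pools, the 4 steatosis pools lay close together, and the groups did not overlap. On the log2 scale the change was -2.36 ± 0.58 (SE) (adjusted p = 0.0141 by limma), and -2.64 (adjusted p = 0.0116) after median ratio scaling. Without initial state pool 1 it was -1.70 with an adjusted p of 0.00293 by limma, which passed the stricter limits, as did the estimate with paired pools (adjusted p = 0.00847). The pool that was high in SLC25A25 was also the pool that held transcripts of skeletal muscle and stomach, and their part in its value was not tested. In that pool the summed level of 8 listed immediate early genes was 363 FPKM, against 43.1 to 118 FPKM in the other initial pools and 76.2 to 194 FPKM in steatosis, and their part was not tested either. In the other 3 initial pools SLC25A25 lay between 15.3 and 36.1 FPKM, above the highest steatosis pool. The gene lies on chromosome 1 from 268531752 to 268575195 (Sscrofa11.1, RefSeq). It was the carrier for which the study designed RT-qPCR primers, which are written here 5′ to 3′ in lower case to show the part of the transcript they target. The RT-qPCR values themselves were not analysed here, so the direction given for SLC25A25 rests on the FPKM of these pools alone. The study names SLC25A25 as an exception whose RT-qPCR did not follow its sequencing.
SLC25A25 sense: atcgtacaagctggcgacaa
SLC25A25 antisense: tctcttgggcatcaatgcgt

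**Figure D3:**
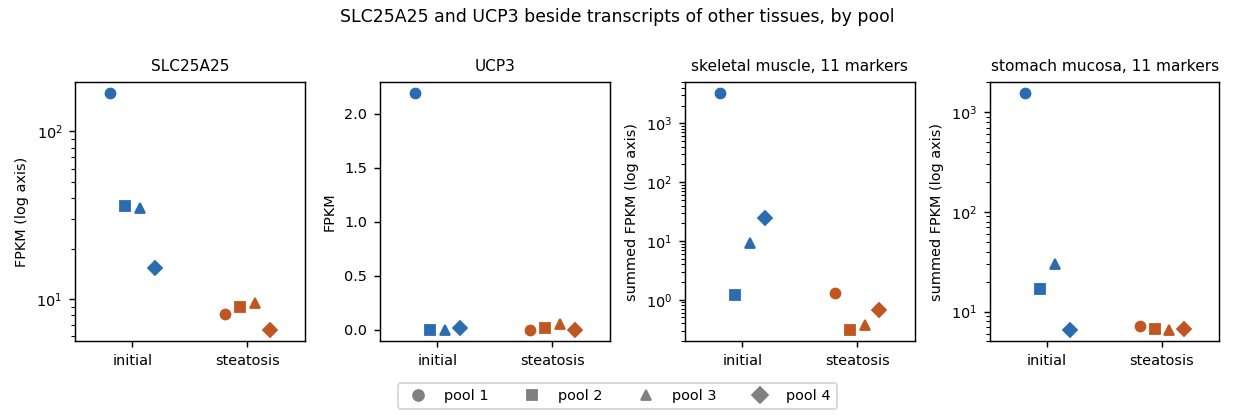
FPKM of SLC25A25 and UCP3 and summed FPKM of 11 skeletal muscle and 11 stomach mucosa markers in each pool, on log axes except for UCP3, with marker shapes for the pool number. Initial state pool 1 is the highest point in all 4 panels, and only for SLC25A25 are the other 3 initial pools all above all steatosis pools.

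The other calcium-regulated forms moved the opposite way. SLC25A24 measured 2.01, 1.42, 1.3 and 1.02 FPKM before the diet and 2.46, 2.89, 2.77 and 2.7 FPKM after it (pools 1 to 4 of each state). All steatosis pools were higher than all initial pools, with a log2 fold change of 0.90 ± 0.19 (SE) (by limma, adjusted p = 0.00687) and 0.64 after median ratio scaling (adjusted p = 0.0253). SLC25A23 measured 3.23, 3, 2.56 and 1.52 FPKM in the initial state and 3.91, 4.62, 3.95 and 4.56 FPKM in steatosis, in the order of the pools. The groups did not overlap, and the log2 fold change was 0.75 ± 0.21 (SE) (adjusted p = 0.0267 by limma), which after median ratio scaling was 0.48 and did not pass the test (adjusted p = 0.0774). SLC25A41, a form without the calcium-binding domain, stayed under the filter.

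Among the uncoupling proteins only UCP2 passed the test. UCP2 is the widely expressed member and is abundant in cells of the immune system, and it does not generate heat as UCP1 does. It measured 7.91, 10.1, 13.03 and 6.22 FPKM in initial state pools 1 to 4 and 17.5, 13.2, 15.3 and 13.6 FPKM in steatosis pools 1 to 4. The highest initial pool and the lowest steatosis pool differed by little, yet the groups did not overlap. The change was 0.72 ± 0.21 (SE) on the log2 scale (adjusted p = 0.0286 by limma), and 0.44 after median ratio scaling (adjusted p = 0.109). The macrophage markers given above rose between the same groups, and their part in UCP2 was not tested. SLC25A30, a kidney form that was the most abundant of this group in the liver, measured 91.2, 89.5, 84.5 and 46.5 FPKM before the diet and 60.9, 72.2, 46.4 and 36.5 FPKM after it (pools 1 to 4 of each state). The groups overlapped through initial state pool 4, and the adjusted p was 0.151 as deposited but 0.0154 with paired pools and 0.0364 after median ratio scaling (limma). SLC25A27 (UCP4), which is best known from the brain, was also plentiful and measured 50.9, 52.7, 59.3 and 39.3 FPKM in the initial state and 52.3, 49.9, 56.4 and 45.1 FPKM in steatosis, in the order of the pools. SLC25A14 (UCP5) measured 0.99, 1.15, 1.01 and 1.03 FPKM before the diet and 0.98, 1.36, 1.22 and 1.2 FPKM after it (pools 1 to 4 of each state), and the groups overlapped for both genes. The log2 fold changes of SLC25A27 and SLC25A14 were 0.02 and 0.17 as deposited and -0.26 and -0.09 after median ratio scaling, and neither passed the test.

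UCP3, the muscle form, was listed at 2.19, 0, 0 and 0.02 FPKM in initial state pools 1 to 4 and at 0, 0.02, 0.05 and 0 FPKM in steatosis. Its only value above 0.05 FPKM was in initial state pool 1, where the muscle markers were also high. UCP1 was listed at 0 in 7 pools and at 0.08 FPKM in steatosis pool 4. Neither reached the filter, and 2-sided exact permutation tests of the mean FPKM gave p = 0.886 for UCP3 and p = 1 for UCP1, where the smallest p that 4 pools against 4 allow is 0.0286.

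Of the 6 tested carriers of dicarboxylates and tricarboxylates, 1 fell and 0 rose (3 and 0 at an unadjusted p under 0.05). By the adjusted p 2.28% of all tested genes fell and 26.7% rose, and the share at an unadjusted p is not given here. SLC25A1 exports citrate to the cytosol, where it feeds fatty acid and sterol synthesis. It measured 104, 156, 135 and 124 FPKM in initial state pools 1 to 4 and 85.8, 82.5, 62.2 and 62.2 FPKM in steatosis pools 1 to 4. Every steatosis pool lay below every initial pool, at 0.56 times the initial level by the fitted log2 fold change of -0.83 ± 0.15 (SE) (adjusted p = 0.00378 by limma), and the estimate after median ratio scaling was -1.11 (adjusted p = 0.00137). The dicarboxylate carrier SLC25A10, which exchanges malate or succinate for phosphate, was at 33.05 ± 4.23 FPKM and 27.3 ± 3.38 FPKM (SD, n = 4 pools each). The oxoglutarate carrier SLC25A11, an element of the malate-aspartate shuttle, was at 26.5 ± 3.39 FPKM and 21.3 ± 1.85 FPKM. Both pairs of groups overlapped, and neither gene passed the test as deposited (adjusted p = 0.118 and 0.0658 by limma), whereas after median ratio scaling both did, with estimates of -0.56 and -0.59. SLC25A21, the carrier of oxoadipate, and the orphans SLC25A34 and SLC25A35 had log2 fold changes of 0.09, 0.08 and 0.54 as deposited and -0.18, -0.20 and 0.29 after median ratio scaling, and none of these 3 passed the test in either scaling.

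The aspartate and glutamate carriers did not pass the test as deposited (0 of 3 in either direction, also at an unadjusted p under 0.05). Of all tested genes 26.7% rose and 2.28% fell by the adjusted p. SLC25A13 (citrin) is the liver form of the aspartate-glutamate carrier and serves both the malate-aspartate shuttle and the urea cycle. It held 95.2% ± 1.75 and 93.5% ± 1.13 (SD, n = 4 pools each) of the summed FPKM of SLC25A12 and SLC25A13. It measured 27.6, 37.9, 36.7 and 38.5 FPKM in the initial state and 30.2, 33.5, 31.5 and 30.5 FPKM in steatosis, in the order of the pools, with overlap of the groups and a log2 fold change of -0.15 ± 0.12 (SE) (by limma, adjusted p = 0.356). After median ratio scaling that estimate was -0.43 (adjusted p = 0.047), which no longer passed when the pools were also paired (adjusted p = 0.0543). SLC25A12, the form of brain and muscle, and the glutamate carrier SLC25A22 had log2 fold changes of 0.35 and 0.02 as deposited and 0.08 and -0.26 after scaling.

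SLC25A15 brings cytosolic ornithine into the matrix for the urea cycle. It measured 42.6, 31.3, 25.5 and 24.9 FPKM in initial state pools 1 to 4 and 20.2, 21.2, 18.5 and 21.2 FPKM in steatosis pools 1 to 4. The groups did not overlap, and the log2 fold change was -0.58 ± 0.16 (SE) (adjusted p = 0.0246 by limma), or -0.86 after median ratio scaling (adjusted p = 0.00517). SLC25A29, a carrier of basic amino acids, measured 9.05, 9.75, 7.95 and 3.47 FPKM before the diet and 4.76, 4.33, 4.12 and 3.66 FPKM after it (pools 1 to 4 of each state). Initial state pool 4 lay below all steatosis pools, while the other 3 initial pools lay above all of them. The log2 fold change of -0.73 ± 0.29 (SE) did not pass the test (adjusted p = 0.0802 by limma). It passed with paired pools (adjusted p = 0.0345), after median ratio scaling (adjusted p = 0.0187) and without initial state pool 4 (adjusted p = 0.000785). The glycine carrier SLC25A38, needed for heme synthesis, and the branched-chain amino acid carrier SLC25A44 had log2 fold changes of -0.21 and -0.04 as deposited. After median ratio scaling SLC25A38 passed the test at -0.48 and SLC25A44, at -0.32, did not (adjusted p = 0.01 and 0.0662 by limma).

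SLC25A20 exchanges acylcarnitine for carnitine and is the step by which long-chain fatty acids enter the matrix. It measured 31.2, 37.1, 35.4 and 37.5 FPKM in the initial state and 33.8, 36.9, 27.4 and 28.7 FPKM in steatosis, in the order of the pools. The groups overlapped, with a log2 fold change of -0.16 ± 0.12 (SE) (by limma, adjusted p = 0.313) and -0.44 after median ratio scaling (adjusted p = 0.0372). With scaling and paired pools together the adjusted p by limma was 0.0665.

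Other carriers move cofactors. SLC25A16, thought to carry coenzyme A or its precursors, measured 5.11, 7.07, 4.38 and 4.27 FPKM before the diet and 3.05, 3.76, 3.65 and 3.25 FPKM after it (pools 1 to 4 of each state). Every steatosis pool was below every initial pool, with a log2 fold change of -0.56 ± 0.17 (SE) (by limma, adjusted p = 0.0313) and -0.84 after median ratio scaling (adjusted p = 0.00399). SLC25A42, the better characterised coenzyme A carrier, ranged over 9.33 to 18.6 FPKM and 11.7 to 15.2 FPKM with overlap. The peroxisomal cofactor carrier SLC25A17, the S-adenosylmethionine carrier SLC25A26, the folate and flavin carrier SLC25A32 and the NAD carrier SLC25A51 had log2 fold changes of -0.02, 0.01, -0.07 and 0.08 as deposited. After median ratio scaling their estimates were -0.30, -0.26, -0.35 and -0.19, of which only that of SLC25A32 passed the test (adjusted p = 0.0364 by limma), and it did not when the pools were also paired (adjusted p = 0.0792).

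The pyrimidine nucleotide carriers supply the matrix with precursors for mitochondrial DNA and RNA. SLC25A33 measured 15.1, 10.9, 11.14 and 7.36 FPKM in the initial state and 6.66, 6.34, 6.93 and 8.13 FPKM in steatosis, in the order of the pools. Initial state pool 4 lay below the highest steatosis pool, so the groups overlapped. The log2 fold change was -0.62 ± 0.19 (SE) (adjusted p = 0.0376 by limma), the call was lost with paired pools (adjusted p = 0.0545), and the estimate after median ratio scaling was -0.90 (adjusted p = 0.00632). Its paralogue SLC25A36 was at 2.91 ± 0.799 FPKM and 3.64 ± 0.342 FPKM (SD, n = 4 pools each), with a log2 fold change of 0.35 that did not pass the test (adjusted p = 0.197 by limma).

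Iron enters the matrix through the mitoferrins. SLC25A37 (mitoferrin 1), known for its role in developing red cells, measured 3.84, 5.35, 5.07 and 4.27 FPKM in initial state pools 1 to 4 and 7.44, 7.65, 9.54 and 7.08 FPKM in steatosis pools 1 to 4. All steatosis pools exceeded all initial pools, with a log2 fold change of 0.76 ± 0.14 (SE) (by limma, adjusted p = 0.0038) and 0.49 after median ratio scaling (adjusted p = 0.0286). The 7 listed red cell markers summed to 264 to 1304 FPKM in the initial state and 138 to 431 FPKM in steatosis. Of the 4 that were tested 0 rose and 0 fell (0 and 1 at an unadjusted p under 0.05, 0 and 1 after median ratio scaling). The shares of all genes given with the other marker lists apply here too. The part of red cells in SLC25A37 was not tested. SLC25A28 (mitoferrin 2), the form of most other tissues, was at 24.5 ± 0.994 FPKM and 26.5 ± 2.82 FPKM, and its log2 fold change was 0.11 as deposited and -0.17 after scaling, without passing the test in either.

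SLC25A39 and SLC25A40 carry glutathione, the main thiol antioxidant, into the matrix. SLC25A40 measured 3.71, 4.91, 5.02 and 3.41 FPKM before the diet and 5.74, 5.74, 5.89 and 6.55 FPKM after it (pools 1 to 4 of each state). The groups did not overlap, and the log2 fold change was 0.50 ± 0.14 (SE) (adjusted p = 0.0293 by limma), which after median ratio scaling was 0.22 (adjusted p = 0.181). SLC25A39, the more abundant form, measured 45.2, 52.5, 46.6 and 47.04 FPKM in the initial state and 40.2, 43.5, 41.2 and 40.1 FPKM in steatosis, in the order of the pools. Its groups did not overlap either, yet the log2 fold change of -0.21 ± 0.08 (SE) did not pass the test as deposited (adjusted p = 0.0808 by limma), and it did after median ratio scaling (-0.49, adjusted p = 0.00512).

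The most abundant carrier of the liver, SLC25A47, has no substrate that is agreed upon. It measured 405, 590.0, 654 and 351 FPKM in initial state pools 1 to 4 and 234, 374, 224 and 259 FPKM in steatosis pools 1 to 4. Steatosis pool 2 lay above initial state pool 4, so the groups overlapped, while each steatosis pool was below the initial pool of the same number. The log2 fold change was -0.86 ± 0.22 (SE), or 0.55 times the initial level (adjusted p = 0.0191 by limma), and -1.14 after median ratio scaling (adjusted p = 0.00508). SLC25A48, a carrier linked to choline, measured 5.04, 4.42, 6.59 and 4.87 FPKM before the diet and 8.94, 7.96, 12.3 and 11.7 FPKM after it (pools 1 to 4 of each state). All steatosis pools lay above all initial pools, at 1.93 times the initial level by a log2 fold change of 0.95 ± 0.17 (SE) (by limma, adjusted p = 0.00348), and the log2 estimate was 0.67 after median ratio scaling (adjusted p = 0.028). SLC25A43, of unsettled function, measured 1.79, 1.92, 2.42 and 2.06 FPKM in the initial state and 3.17, 3.95, 3.15 and 2.77 FPKM in steatosis, in the order of the pools. The groups did not overlap, and the log2 fold change was 0.64 ± 0.15 (SE) (adjusted p = 0.011 by limma), or 0.37 after median ratio scaling (adjusted p = 0.105). SLC25A46, which sits in the outer membrane and takes part in mitochondrial dynamics, was at 5.75 ± 0.627 FPKM and 5.77 ± 0.439 FPKM (SD, n = 4 pools each). SLC25A45 varied more within each state than between them, over 3.61 to 6.88 FPKM and 2.8 to 7.39 FPKM.

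**Figure D4:**
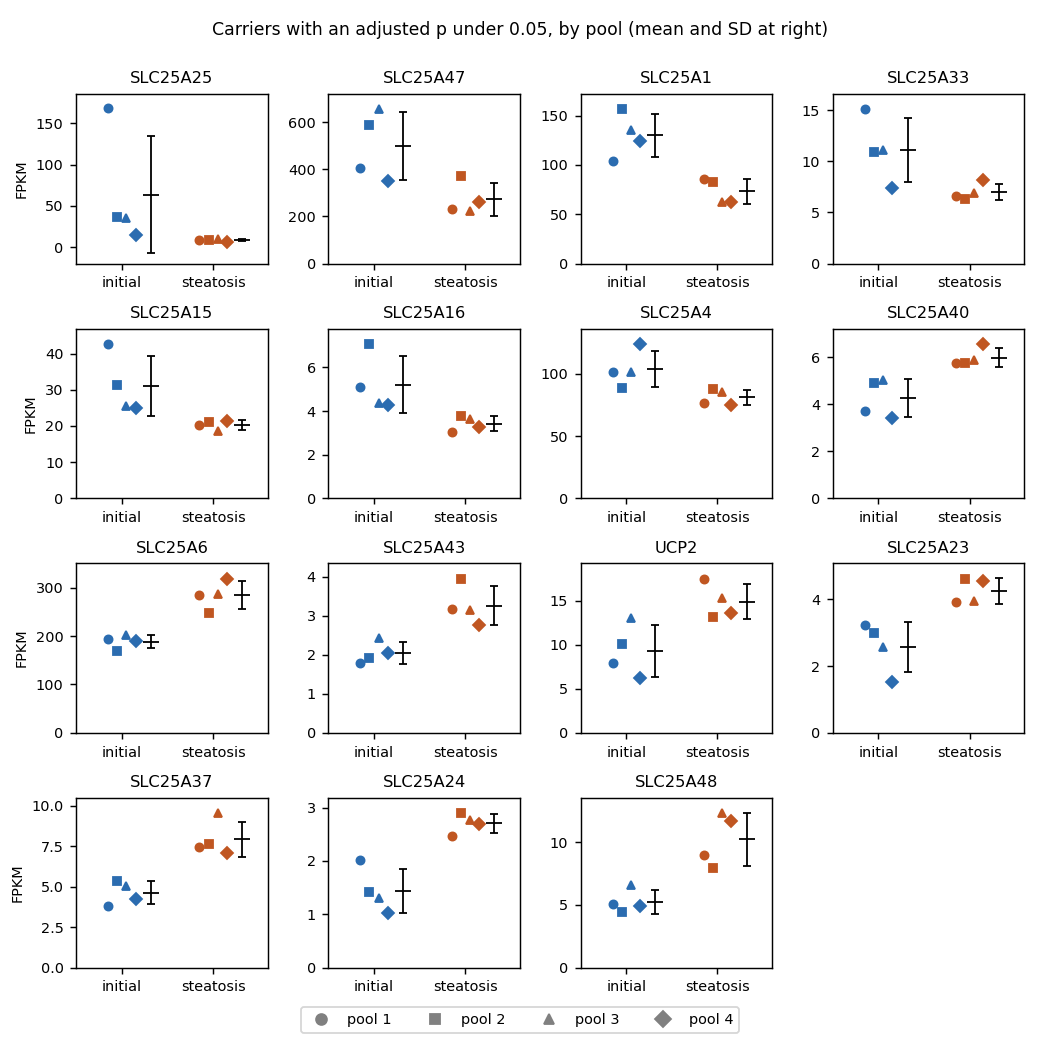
FPKM of 15 of the 16 called carriers in each pool, with marker shapes for the pool number and the mean and SD of the 4 pools beside each group, ordered from the lowest to the highest log2 fold change. Of the 15 genes 13 show no overlap of the groups, and SLC25A47 and SLC25A33 are the exceptions.

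When each pool was left out in turn, 7 of the 16 called carriers kept an adjusted p under 0.05 by limma in all 8 fits. These were SLC25A6, SLC25A48, SLC25A1, SLC25A37, SLC25A24, SLC25A43 and SLC25A25. SLC25A47 lost its call without steatosis pool 1 or 3 (adjusted p = 0.0507 and 0.0525), and SLC25A23 without steatosis pool 2 or 4 (adjusted p = 0.0703 and 0.0711). SLC25A15 lost it without initial state pool 2 or without steatosis pool 1, 3 or 4 (adjusted p up to 0.0644). SLC25A40 and SLC25A16 lost theirs without initial state pool 1 or any steatosis pool (adjusted p up to 0.0866 and 0.081). UCP2 lost its call without initial state pool 1 or 4 or without steatosis pool 1, 3 or 4 (adjusted p up to 0.0742). SLC25A4 kept its call only without initial state pool 2, and SLC25A33 only without initial state pool 4, with adjusted p values of up to 0.118 and 0.094 otherwise. Leaving out initial state pool 1, which held muscle and stomach transcripts, gave 6 carriers higher and 4 lower. The share of all genes called in that fit is not given here.

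Shares of summed FPKM within a pool do not depend on the scaling between pools. Among the ADP/ATP carriers the share of SLC25A6 went from 54.5% ± 4.06 to 65.9% ± 3.17 and that of SLC25A4 from 29.8% ± 1.81 to 18.9% ± 2.35 (SD, n = 4 pools each), without overlap of the groups. The share of SLC25A5 was 15.7% ± 3.30 and 15.2% ± 1.42, with overlap, and the sum of the ADP/ATP carriers was 347 ± 27.8 FPKM and 431 ± 22.8 FPKM. The larger part of the ADP/ATP carrier transcripts thus came from SLC25A6 in both states. Among the ATP-Mg/phosphate carriers SLC25A25 went from 90.4% ± 4.76 to 53.5% ± 4.63, while SLC25A23 went from 6.09% ± 2.93 to 27.8% ± 3.54 and SLC25A24 from 3.43% ± 1.87 to 17.6% ± 1.16, each without overlap. This held in every initial pool, since SLC25A25 made up 85.7% to 97.0% before the diet and 47% to 57.8% after it. The share of SLC25A37 in the mitoferrins went from 15.9% ± 2.14 to 23.2% ± 3.99, and that of SLC25A36 in the pyrimidine nucleotide carriers from 20.8% ± 1.17 to 34.2% ± 3.47. The share of SLC25A40 in the glutathione carriers went from 8.16% ± 1.276 to 12.7% ± 1.003. In these 3 pairs the less abundant member gained share without overlap of the groups. The pairs SLC25A12 with SLC25A13 and SLC25A16 with SLC25A42 overlapped between the groups. These shares are descriptions and were not tested.

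**Figure D5:**
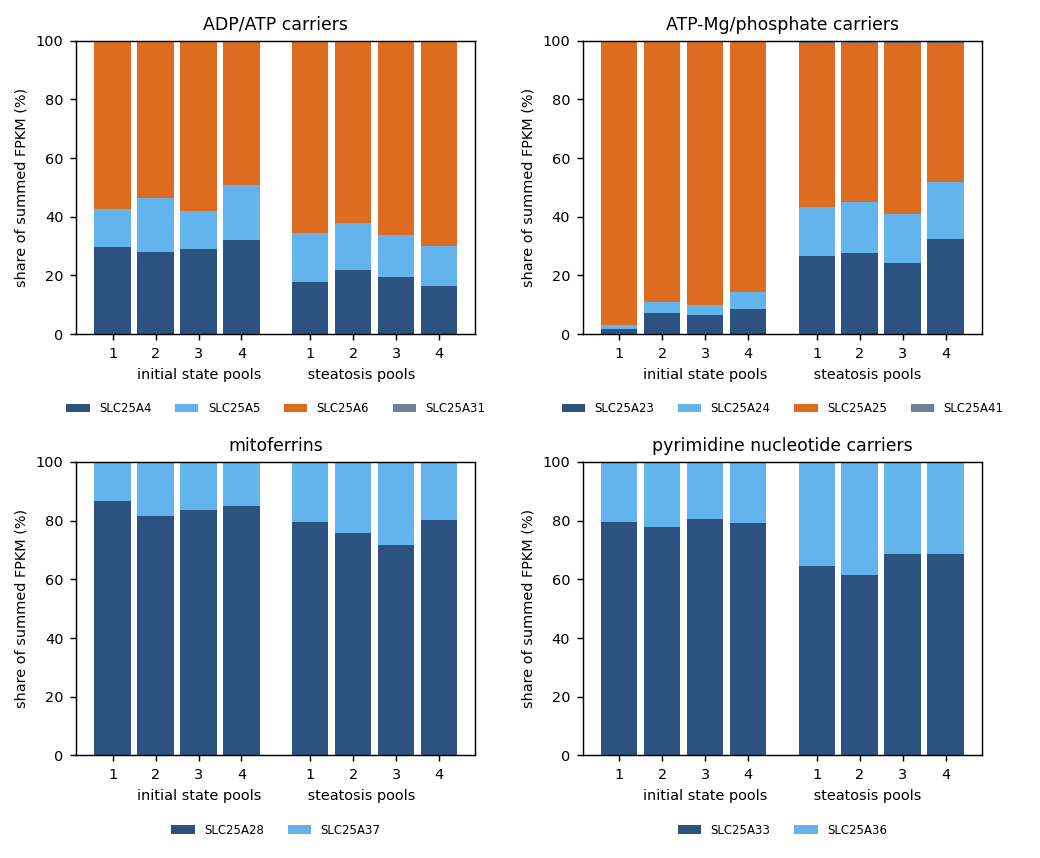
Share of summed FPKM, in percent, held by each member of 4 sets of related carriers, with a bar for each pool. SLC25A25 makes up 85.7% to 97.0% of its set in the initial state and 47% to 57.8% in steatosis, and SLC25A6, SLC25A37 and SLC25A36 take larger shares in every steatosis pool than in any initial pool.

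Some carriers lie beside each other on the chromosome. SLC25A47 and SLC25A29 are 11844 bp apart on chromosome 7 (121178211 to 121192369 for SLC25A29 and 121204213 to 121210376 for SLC25A47, Sscrofa11.1), and their log2 fold changes were -0.86 and -0.73, although the latter did not pass the test. SLC25A43 and SLC25A5 are 12524 bp apart on chromosome X, with log2 fold changes of 0.64 and 0.29, of which only the first passed. UCP2 and UCP3 are 13471 bp apart on chromosome 9, and SLC25A23 and SLC25A41 are 1933 bp apart on chromosome 2. In each of the last pairs 1 gene rose as deposited while the other was at or near 0 FPKM in most pools.

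The remaining carriers under the filter were SLC25A53, SLC25A41 and SLC25A31. SLC25A53 was at 0.07 to 0.2 FPKM in the initial state and 0.1 to 0.19 FPKM in steatosis (p = 0.657, 2-sided exact permutation test of mean FPKM, n = 4 pools each). SLC25A41 was listed at 0.04, 0.18, 0 and 0 FPKM and at 0.16, 0.18, 0.2 and 0.16 FPKM, with p = 0.114 by the same exact test. Its share of the summed ATP-Mg/phosphate carriers was 0% to 0.442% in the initial state and 1.08% to 1.22% in steatosis, without overlap. Its FPKM did overlap between the groups, and the sum below this share went from 67.8 ± 71.6 FPKM to 15.4 ± 1.29 FPKM (SD, n = 4 pools each). SLC25A31, the testis form of the ADP/ATP carrier, was listed at 0 in 7 pools and at 0.02 FPKM in steatosis pool 4. With a single pool above 0 the same exact test could not decide, as for UCP1.

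The genes that work with the carriers were followed through 9 lists with 96 named genes, of which 86 were listed and tested. In all, 14 rose and 10 fell (18 and 14 at an unadjusted p under 0.05), beside 26.7% of all tested genes that rose and 2.28% that fell. After median ratio scaling 5 of the partner genes rose and 27 fell, beside 11.3% and 10.2% of all genes. The same shares apply to each list below. Their median log2 fold change was 0.03, beside 0.25 for all genes.

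Import of carriers into the inner membrane needs small chaperones of the intermembrane space and the TIM22 complex. Of 11 tested genes 1 rose and 1 fell. The chaperone TIMM9 rose by 0.42 on the log2 scale (adjusted p = 0.00745 by limma, and 0.14 with 0.264 after median ratio scaling), and TIMM8A fell (-0.56 and -0.84, adjusted p = 0.0256 and 0.0114 as deposited and after scaling). Of 20 mitochondrial transporters of other families 7 rose and 0 fell, and after median ratio scaling 3 rose and 4 fell. Those that rose in both scalings included the sodium-calcium exchanger SLC8B1 (1.09 and 0.81 in the same order of scalings, adjusted p = 0.000515 and 0.00144 by limma), which moves calcium out of the matrix, and MCU, the pore through which calcium enters it (0.77 and 0.49).

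Of 7 genes of the malate-aspartate and glycerol phosphate shuttles 2 rose and 2 fell. Cytosolic GPD1 and GOT1 fell in both scalings (as deposited -0.99 and -0.70, adjusted p = 0.00303 and 0.00901 by limma, and after scaling -1.27 and -0.98), while mitochondrial GOT2 rose as deposited (0.47, adjusted p = 0.0093) and was at 0.19 after scaling (adjusted p = 0.276). In the carnitine shuttle 0 of 6 genes rose and 1 fell by limma (1 and 1 at an unadjusted p under 0.05). This was CPT1A, which makes acylcarnitine from acyl-CoA in the outer membrane (-0.60, adjusted p = 0.0389, and -0.88 after median ratio scaling). Of 7 genes that make citrate or use it for lipid synthesis 2 rose and 1 fell. ACACA (acetyl-CoA carboxylase) rose in both scalings (1.19 and 0.91), CS (citrate synthase) rose as deposited (0.53) but not after scaling (0.25, adjusted p = 0.0597 by limma), and ACSS2, which activates acetate, fell in both (-0.72 and -0.99).

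Of 9 genes of the urea cycle and its nitrogen supply 1 rose and 3 fell. GLUD1, which releases ammonia from glutamate, rose (0.99 as deposited and 0.71 after median ratio scaling, adjusted p = 0.00175 and 0.0197 by limma). ARG2, the mitochondrial arginase, fell by 1.72 on the log2 scale (adjusted p = 0.00774, and -1.99 after scaling), and ASS1 (argininosuccinate synthase) was at -0.99 (adjusted p = 0.0189, and -1.27 after scaling). Of 11 regulators of mitochondrial biogenesis 1 rose and 2 fell. NRF1 rose as deposited (0.50) but not after scaling (0.23, adjusted p = 0.194 by limma), while the mitochondrial transcription factor TFB2M and the coactivator PPARGC1A fell in both (-0.62 and -0.98 as deposited, -0.89 and -1.25 after scaling). In the lists of heme and iron-sulphur synthesis (8 tested) and of ATP synthase (7 tested) limma called 0 genes as deposited. At an unadjusted p under 0.05, 0 were higher and 2 lower in the former and 0 in the latter. After median ratio scaling 4 and 1 of them fell.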

How the data were processed

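Hepatic poly-A RNA of 8 pools was sequenced by the study with paired-end reads of 100 bp. According to the study's methods and the submitters' notes, the authors filtered the reads, mapped them with HISAT2 2.0.4 to Sus scrofa 11.1, assembled transcripts with StringTie and estimated expression with Bowtie2 2.2.5 and RSEM 1.2.12. The values used are the FPKM of all pools as deposited by the authors, with no stated scaling between pools. The deposited comparisons of single pairs of pools hold the authors' fold changes and p values by a Poisson method, which were not used. Only gene lengths were taken from such a comparison, for the estimate of depth. A count test was planned for the case that counts were at hand, and since the table holds FPKM, limma was used.

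The 13175 genes that reached 0.3 FPKM in 4 or more pools were compared by limma 3.58.1 (R 4.3.3) after taking log2(FPKM + 0.1). The model held the state alone and a trend of variance with level, and p values were adjusted by Benjamini-Hochberg over all of these genes. The pseudocount makes the change of low genes appear smaller. Tables, exact permutation tests and plots were made with Python 3.11.15, numpy 2.4.6, pandas 2.3.3, scipy 1.17.1 and matplotlib 3.10.9. Depth was estimated from the steps of low FPKM values over genes between 500 and 900 bp long, after taking 70 bp off the length, and it limits the genes near 0 only. All 48 carriers matched RefSeq genes of Sscrofa11.1 by gene ID, from which coordinates were taken.

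Pools of the same number were taken to pair the states in the alternative fits with a block, and the main fit did not use this pairing. The sample titles do not say that pools of the same number hold the same pigs. Correlations between pools of different numbers are not given here. The correlation of their deviations around the mean of each state was 0.163, 0.350, 0.317 and 0.247 for pools 1 to 4, all over 0.1, and the study states that both states are the same animals. Alternatives were the pairing of pools as a block in limma, common sum, upper quartile and median ratio scaling, a pseudocount of 1, no filter, a filter of 1 FPKM and leaving out each pool. Median ratio scaling without pool 1 of both states was added after seeing the data.

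Values in every pool are given for the called carriers, apart from 1 that is not reported here, the 5 most abundant and the uncoupling proteins, and for some others that were chosen after their values were seen (SLC25A30, SLC25A13, SLC25A20, SLC25A29, SLC25A39, SLC25A41). At most 3 genes of each list of partner genes are named, those of lowest adjusted p. The carriers, the partner lists and the marker lists were chosen with earlier results of these data known.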

Additional observations from a re-analysis of the deposited data

Results flagged for a closer look

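Dixon's ratio was taken in 94 groups of 4 pools, a group being 1 carrier in 1 state with values that were not all equal. It is the gap between the highest or the lowest pool and its nearest neighbour, divided by the range of all 4 pools. The limit was that of the 95% level, which chance passes in about 1 of 20 groups. It was passed in 9 groups, of which 3 had initial state pool 1 as the pool that stood apart. The 9 include UCP1 and SLC25A31 in steatosis, where a single pool was above 0 and the ratio was 1 by arithmetic. The rate of 1 in 20 does not apply to such groups.

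In initial state pool 1, SLC25A25 was at 168.75 FPKM against 15.27 to 36.08 FPKM in the other initial pools, UCP3 was at 2.19 FPKM against 0 to 0.02 FPKM, and SLC25A13 was at 27.6 FPKM against 36.74 to 38.5 FPKM. In initial state pool 4, SLC25A30 was at 46.49 FPKM against 84.47 to 91.15 FPKM.

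In steatosis pool 1, SLC25A32 was at 5.63 FPKM against 4.89 to 5.01 FPKM and SLC25A12 was at 2.7 FPKM against 1.97 to 2.07 FPKM in the other steatosis pools. In steatosis pool 4, SLC25A21 was at 2.23 FPKM against 2.66 to 2.73 FPKM. UCP1 at 0.08 FPKM and SLC25A31 at 0.02 FPKM in that pool were the only values above 0 for these genes.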

How the results depend on the processing

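The counts of called carriers, 9 higher and 7 lower, depended most on the scaling between pools. Upper quartile scaling gave 3 higher and 13 lower, and median ratio scaling 3 higher and 16 lower. Of all tested genes, 26.7% rose and 2.28% fell as deposited, and 11.3% and 10.2% after median ratio scaling. The shares of all genes in the other settings are not given here, so their counts cannot be set against them. The 9 and 7 called carriers were moved by leaving out single pools to 5 to 9 higher (5 without steatosis pool 4) and 2 to 9 lower (2 without steatosis pool 1 or 3, 3 without steatosis pool 4, 4 without initial state pool 1 or steatosis pool 2). By the stricter limits, 0 higher became 0 to 1 and 0 lower 0 to 2 when single pools were left out, and 2 were lower with upper quartile or with median ratio scaling. Of the partner genes, 14 higher and 10 lower became 7 and 21 with upper quartile scaling, 5 and 27 with median ratio scaling, and 9 to 16 and 3 to 10 when single pools were left out. Median ratio scaling without pool 1 of both states, chosen after seeing the data, gave 2 carriers higher and 12 lower, 2 lower by the stricter limits, and 5 and 18 partner genes. With the pairing of pools as a replicate block, 1 carrier (SLC25A25) was lower by the stricter limits, calls such as those of SLC25A4 and SLC25A33 were lost and SLC25A29 and SLC25A30 were called. The replicate block with median ratio scaling gave 3 higher, 13 lower, 4 lower by the stricter limits, and 4 and 22 partner genes.

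SLC25A3 changed sign with upper quartile scaling (-0.078), median ratio scaling (-0.12), the replicate block with median ratio scaling (-0.12) and median ratio scaling without pool 1 (-0.081), and it passed the test in none of them. Over 17 carriers, the called ones and SLC25A3, and 17 alternatives, 210 of 289 estimates kept their direction and side of the threshold, 75 kept their direction only, and the other 4 were those of SLC25A3. The cause of these shifts was not tested. The groups differ in diet, age and sampling at once, there are 4 pools of 2 pigs in each, and no counting error can be read from FPKM.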
